A study of Rattus norvegicus with 12 samples.

Results

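Gnat2, Atp6v1c2, Abcc3, Lrrc34 and Sulf1 are 5 of the 14506 genes measured in rat ventral prostate, and they were chosen by their measured values because their levels were far higher than in control after each of 3 androgen deprivation procedures. Each was represented by 1 probe set whose only annotated symbol was that gene. Their differences from control therefore describe the choice and carry no test. A high level in each treated group was part of that choice, so differences between one treated group and another are not independent of it either and are given with intervals as a description. Tests were kept for other genes. All animals were male Wistar rats 90 days old with no genetic modification named in the labels, and the gland was collected 3 days after treatment. The castrated group had both testes removed under ketamine at 150 mg/kg and xylazine at 10 mg/kg. The estradiol group kept the testes and was given a single 25 mg/kg dose of 17β-estradiol in corn oil. The combined group had the orchiectomy and the same dose. The control group kept the testes and was given vehicle alone. There were 3 arrays in each group, and the labels do not say whether the castrated group also had vehicle.

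The ventral prostate is a secretory gland whose luminal epithelium needs testicular androgen. Loss of androgen is followed by epithelial death, by regression of the gland and by clearance of the debris by phagocytes. High doses of estradiol in an intact male lower testicular androgen through the pituitary, so that all 3 procedures reduce androgen by different routes. The 5 genes have unrelated textbook roles. Gnat2 encodes the α subunit of transducin in cone photoreceptors, where it couples light-activated opsin to a phosphodiesterase. Atp6v1c2 encodes a C subunit of the V-ATPase, the pump that moves protons across lysosomal, endosomal and some plasma membranes. Abcc3 encodes an export pump of the multidrug resistance-associated protein family, which carries glucuronides and bile salts out of cells. Lrrc34 encodes a leucine-rich repeat protein studied mainly in mouse pluripotent cells, where it has been placed in the nucleolus. Sulf1 encodes an extracellular enzyme that removes 6-O-sulphate groups from heparan sulphate and so alters the binding of growth factors to that chain.

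RefSeq promoter windows (build GRCr8), which run from 250 bases before to 50 bases after the annotated start, were matched for 2 of the 5 genes. These windows are shown because they were the ones matched. They read 5′ to 3′ on the strand of the gene, and capitals mark the GC box, GGGCGG on either strand. The Lrrc34 window is chr2:114682828-114683127 on the plus strand, and the Atp6v1c2 window is chr6:45848698-45848997 on the minus strand. Gnat2, Abcc3 and Sulf1 are named only.
Lrrc34: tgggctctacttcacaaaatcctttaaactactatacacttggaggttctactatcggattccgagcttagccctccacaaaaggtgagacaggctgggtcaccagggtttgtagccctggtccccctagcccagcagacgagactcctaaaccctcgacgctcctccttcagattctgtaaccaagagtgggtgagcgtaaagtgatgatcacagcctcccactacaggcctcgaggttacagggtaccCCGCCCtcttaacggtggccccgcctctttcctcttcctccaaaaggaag
Atp6v1c2: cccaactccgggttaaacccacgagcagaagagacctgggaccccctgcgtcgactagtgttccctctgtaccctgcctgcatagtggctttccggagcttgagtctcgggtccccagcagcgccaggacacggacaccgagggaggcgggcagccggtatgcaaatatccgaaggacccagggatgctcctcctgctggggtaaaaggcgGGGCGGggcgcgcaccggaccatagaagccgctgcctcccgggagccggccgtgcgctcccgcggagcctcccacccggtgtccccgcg
The Atp6v1c2 window was 68.0% G and C with 27 CpG pairs, and the Lrrc34 window was 53.7% with 10 CpG pairs, against medians of 51.7% and 7 over 33469 RefSeq promoters. Each window held 1 GC box, at bases 212 to 217 for Atp6v1c2 and 251 to 256 for Lrrc34, and 33.06% of all promoters hold at least 1. Searches of both strands found 0 matches in either window of AGAACA, part of the androgen receptor site (20.68% of promoters), or of the full androgen and oestrogen receptor sites (0.01% and 0.03%). The same held for the AP-1 letters TGANTCA (7.33%), the E-box CACGTG (6.42%) and the TATA letters TATAAA (14.22%). A match or its absence describes only these letters in these windows.

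The values are deposited expression levels read as log2. On that scale a difference of 1 is a doubling, and levels of different genes are not set against each other. The number of arrays limited the precision, and the median standard error of a difference over all genes was 0.19. Estradiol arrays 1 and 2 stood apart from the rest. The SD of their values over all probe sets was 1.93 and 2.01 against 2.24 to 2.30 on the other 10 arrays. The decile of genes with the lowest mean over all arrays averaged 3.41 and 3.34 on them, against 2.69 to 2.84. The decile of genes with the highest mean averaged 9.28 and 9.82, against 10.0 to 10.1. The labels do not tie arrays to individual animals, and the design names more rats than arrays, so an array may hold RNA of 1 animal or of a pool. The SDs and SEs therefore describe the spread between arrays, which may be partly technical. Each gene has 1 SE, from a spread pooled over all groups. Scattered arrays in 1 group, such as estradiol, thus widen the SE and interval of every comparison of that gene. In whole tissue, more cells of a type and more RNA per cell cannot be told apart.

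Gnat2, the cone transducin subunit, was 8.77, 9.10 and 7.80 in castrated, 5.78, 8.15 and 8.07 in estradiol-treated and 8.74, 8.51 and 8.11 in combined animals, against 4.88, 4.49 and 5.14 in controls. All treated arrays lay above all control arrays, and estradiol array 1 was the lowest of the 9, only 0.64 above the highest control. The group means were 8.56 ± 0.67, 7.33 ± 1.35 and 8.45 ± 0.32 for castrated, estradiol and combined animals, against 4.83 ± 0.33 for controls (SD, n = 3). The differences from control were 3.72, 2.50 and 3.62 (± 0.51, SE), or 13.2-, 5.65- and 12.3-fold, the largest of the 5 genes after castration and after the combined treatment. Gnat2 lay above 79.6% to 91.2% of the probe sets on its array after castration, against at most 42.4% in controls. The range was 50.3% to 85.8% in estradiol-treated and 82.9% to 88.7% in combined animals.

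Atp6v1c2, the V-ATPase C subunit, was 11.46, 11.06 and 11.16 in castrated, 10.14, 10.84 and 10.91 in estradiol-treated and 10.76, 11.35 and 10.97 in combined animals, against 8.11, 7.69 and 8.03 in controls. The 9 treated arrays were all at least 2.03 above the highest control. The means were 11.23 ± 0.21, 10.63 ± 0.43 and 11.03 ± 0.30, against 7.95 ± 0.22 for controls, and the differences were 3.28, 2.68 and 3.08 (± 0.23, SE), or 9.72-, 6.43- and 8.47-fold. It lay above 97.3% to 99.2% of the probe sets on its array in the treated groups, against 78.9% to 82.9% in controls.

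Abcc3, the export pump, was 9.82, 9.24 and 9.32 in castrated, 9.10, 9.13 and 9.44 in estradiol-treated and 9.85, 9.22 and 10.12 in combined animals, against 6.54, 6.10 and 6.54 in controls. It had the widest gap between the groups, 2.56 between the lowest treated array and the highest control. The means were 9.46 ± 0.32, 9.22 ± 0.19 and 9.73 ± 0.46, against 6.40 ± 0.25 for controls. The differences were 3.06, 2.83 and 3.33 (± 0.24, SE), or 8.35-, 7.09- and 10.1-fold. Abcc3 was also the gene of the 5 in which estradiol array 1 departed least from the other estradiol arrays, being 0.18 below their mean.

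Lrrc34, the leucine-rich repeat protein, was 6.90, 6.94 and 6.56 in castrated, 5.21, 7.34 and 6.74 in estradiol-treated and 6.25, 6.21 and 6.96 in combined animals, against 3.63, 3.74 and 3.53 in controls. The values of castrated animals lay above 64.5% to 69.9% of the probe sets on their arrays, and those of controls above only 16.6% to 18.9%. The range was 37.8% to 77.7% in estradiol-treated and 59.6% to 69.4% in combined animals. The lowest treated array was estradiol array 1, 1.47 above the highest control. The means were 6.80 ± 0.21, 6.43 ± 1.10 and 6.47 ± 0.42, against 3.63 ± 0.11 for controls. The differences were 3.17, 2.80 and 2.84 (± 0.40, SE), or 8.98-, 6.96- and 7.16-fold. How the background was corrected, on which the fold change of so dim a level depends, is not known here.

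Sulf1, the heparan sulphate sulphatase, was 9.92, 9.71 and 9.84 in castrated, 7.80, 9.99 and 9.51 in estradiol-treated and 8.96, 8.35 and 9.49 in combined animals, against 7.02, 6.99 and 7.23 in controls. Its castrated arrays had an SD of only 0.11, and estradiol array 1 was 0.58 above the highest control. The means were 9.83 ± 0.11, 9.10 ± 1.15 and 8.93 ± 0.57, against 7.08 ± 0.13 for controls. The differences were 2.75, 2.02 and 1.85 (± 0.43, SE), or 6.71-, 4.06- and 3.61-fold, the smallest of the 5 genes in each comparison.

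**Figure D1:**
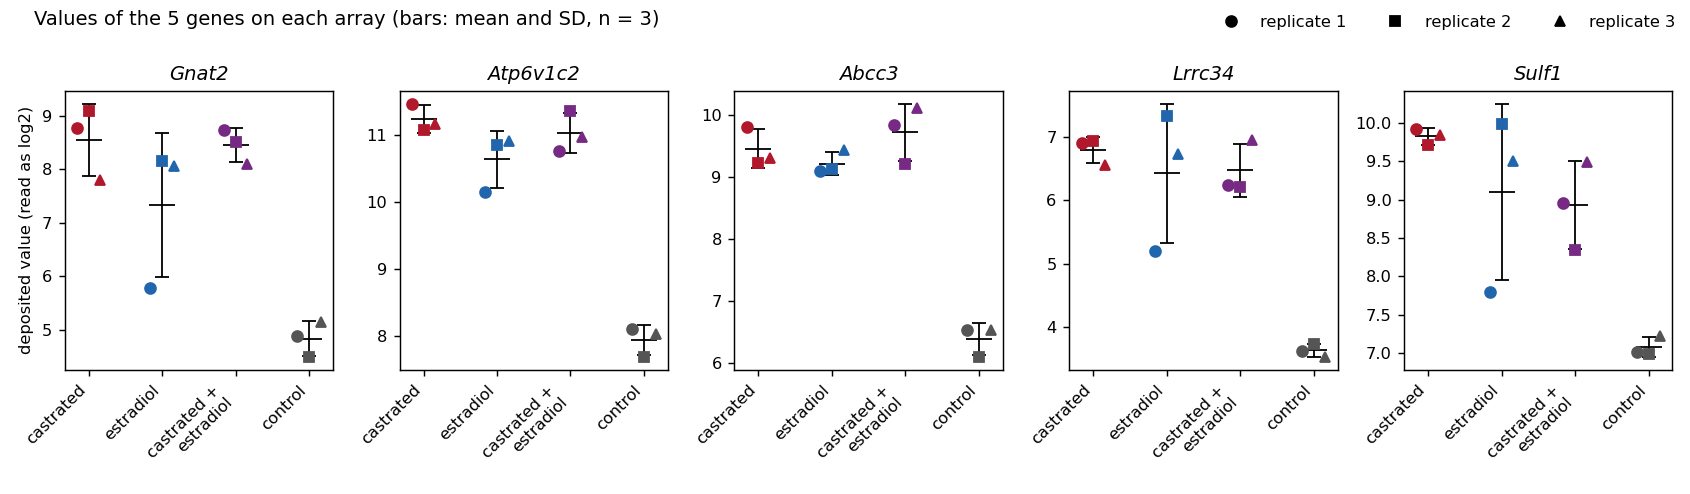
Deposited log2 level (vertical axis) of each of the 5 genes on each of the 12 arrays, by group (castrated, estradiol, castrated + estradiol, control). Points are arrays, and bars are the group mean and SD (n = 3). Treated arrays lie above the controls in every panel, and estradiol array 1 is the lowest treated point for Gnat2, Atp6v1c2, Abcc3, Lrrc34 and Sulf1.

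Over the 5 genes the median difference from control was 3.17, 2.68 and 3.08 for castrated, estradiol and combined animals, against medians of 0.01, 0.07 and 0.04 over all genes. In all, 671 of the 14506 genes, 4.63%, had all 9 treated arrays above all 3 control arrays. The rule used this contrast, so nothing is read from the 5 of 5 here. Ranked by the smallest of the 3 differences, Abcc3 (2.83), Lrrc34 (2.80), Atp6v1c2 (2.68) and Gnat2 (2.50) were 2, 3, 5 and 6, and Sulf1 (1.85) was 14. Mep1b was 1, Gpnmb 4 and Mmp15 7. Around Sulf1 stood Dab1 at 1.86 and Bace2 at 1.84, 2 genes outside the list that differed from it by 0.01.

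**Figure D2:**
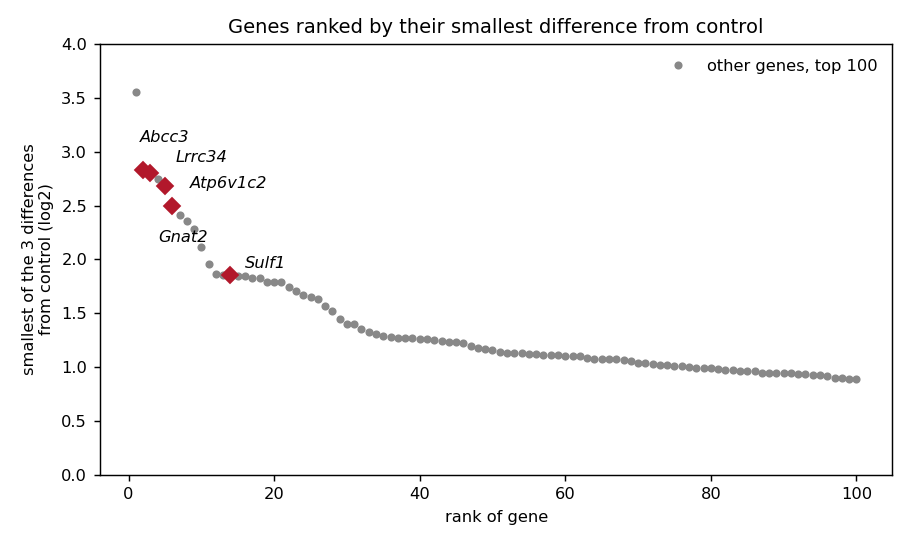
The top-ranked genes by the smallest of their 3 differences from control: rank (horizontal axis) against that difference (log2, vertical axis). Grey points are other genes. Diamonds are the 5 genes, which lie at 2.83, 2.80, 2.68, 2.50 and 1.85.

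Estradiol array 1 carried much of the spread within the estradiol group. It was below the mean of estradiol arrays 2 and 3 by 2.33 for Gnat2, 1.94 for Sulf1, 1.83 for Lrrc34, 0.74 for Atp6v1c2 and 0.18 for Abcc3, against a median shift of 0.07 upward over all genes. A lower value than that of Gnat2 was seen in 0.54% of all genes, than that of Sulf1 in 1.32% and than that of Lrrc34 in 1.72%. The Atp6v1c2 and Abcc3 shifts were less extreme, with 14.53% and 34.35% of genes lower. Bright genes in general read low on array 1. The decile of genes with the highest mean over all arrays averaged 9.28 there, against 9.82 and 10.07 on arrays 2 and 3. The shift of a bright gene such as Atp6v1c2 is not set apart from that. Without estradiol array 1 the difference of the estradiol group from control was 3.41 for Lrrc34 and 2.67 for Sulf1. Without arrays 1 and 2 the estradiol group rests on array 3 alone. The difference was then 3.24 for Gnat2, 2.96 for Atp6v1c2, 3.04 for Abcc3, 3.11 for Lrrc34 and 2.43 for Sulf1.

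In each of the 5 genes the combined difference from control was smaller than the sum of the castrated and estradiol differences. Combined minus castrated, less the estradiol minus control difference, was -2.60 for Gnat2, -2.88 for Atp6v1c2, -2.56 for Abcc3, -3.13 for Lrrc34 and -2.91 for Sulf1. For comparison, the estradiol minus control difference itself was 2.50, 2.68, 2.83, 2.80 and 2.02, in the same order. The contrast uses the controls, so these values describe the choice and have no test.

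Among the treated groups, estradiol minus castrated was -1.22 for Gnat2 (95% interval -2.33 to -0.12) and -0.60 for Atp6v1c2 (-1.08 to -0.11). It was -0.24 for Abcc3 (-0.75 to 0.27), -0.37 for Lrrc34 (-1.23 to 0.49) and -0.73 for Sulf1 (-1.65 to 0.20). The estradiol means lay below the castrated means in all 5 genes. The castrated and estradiol arrays overlapped for Gnat2 and the others apart from Atp6v1c2, where 10.91 was the highest estradiol array and 11.06 the lowest castrated one.

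Combined minus castrated was -0.11 for Gnat2 (-1.21 to 1.0), -0.20 for Atp6v1c2 (-0.69 to 0.29), 0.27 for Abcc3 (-0.24 to 0.78) and -0.33 for Lrrc34 (-1.19 to 0.53). Sulf1 had the largest gap, -0.89 (-1.81 to 0.03), and its lowest castrated array, 9.71, lay above its highest combined array, 9.49. The Gnat2 interval holds a doubling in either direction, so the groups are not shown to be alike.

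Combined minus estradiol was 1.12 for Gnat2 (0.01 to 2.23), 0.40 for Atp6v1c2 (-0.09 to 0.89), 0.04 for Lrrc34 (-0.82 to 0.90) and -0.17 for Sulf1 (-1.09 to 0.75). For Abcc3 it was 0.51 (-0.004 to 1.01). After adjustment limma called 0% of all genes in each of the 3 comparisons. No call is given for the 5 genes because of how they were chosen. At an unadjusted p under 0.05 there were 3956, 153 and 2742 genes for estradiol minus castrated, combined minus castrated and combined minus estradiol. Without estradiol replicate 3, only arrays 1 and 2, which stood apart, are left in that group. Estradiol minus castrated was then -1.59 for Gnat2 and -0.74 for Atp6v1c2. That fit called 2763 genes higher and 2654 lower, of 14506. Without arrays 1 and 2 instead, only array 3 is left. The difference was then -0.49 for Gnat2, -0.32 for Atp6v1c2, -0.02 for Abcc3, -0.06 for Lrrc34 and -0.32 for Sulf1.

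**Figure D3:**
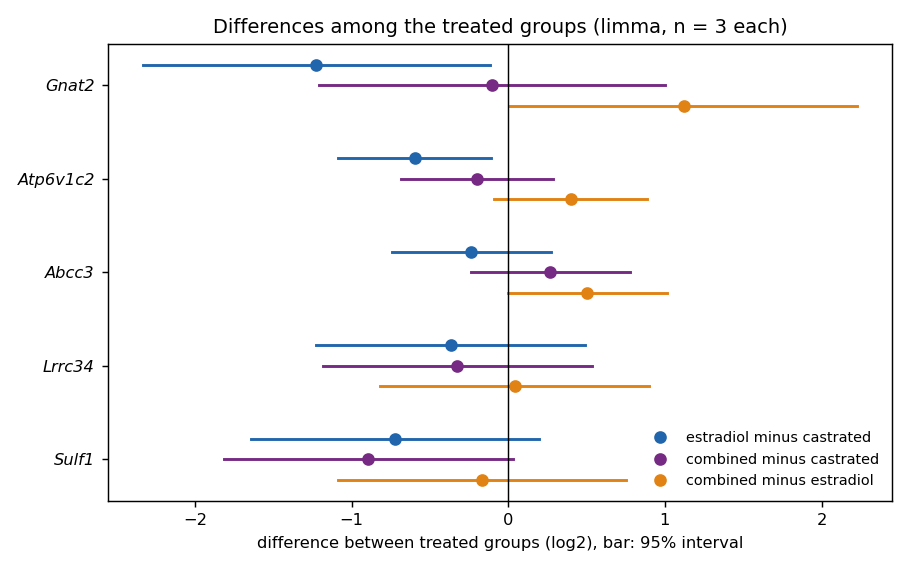
Differences between treated groups (log2, horizontal axis) for the 5 genes, with 95% intervals, in 3 comparisons: estradiol minus castrated, combined minus castrated and combined minus estradiol. Gnat2 and Atp6v1c2 have intervals below 0 for estradiol minus castrated. The intervals are not adjusted and are given as a description.

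The genes whose profiles over the 12 arrays were most like each of the 5 were found by the root mean square difference after centring, among 13390 genes. The 5 genes themselves spread around their own means by 1.14 (Sulf1) to 1.63 (Gnat2) on the same measure. For Gnat2 they were Mmp12 (0.563), a matrix metalloprotease of macrophages, then Atp6v1c2 (0.598) and Lrrc34 (0.605). For Atp6v1c2 they were Abcc3 (0.373), Blnk (0.415), an adaptor of B-cell receptor signalling, and Lrrc34 (0.429). Those of Abcc3 were Blnk (0.371), Atp6v1c2 (0.373) and Mmp15 (0.397), a membrane-bound metalloprotease. Those of Lrrc34 were Sulf1 (0.419), Atp6v1c2 (0.429) and the vomeronasal receptor Vom1r62 (0.442). Those of Sulf1 were Ces2c (0.299), a carboxylesterase, Lrrc34 (0.419) and Sectm1b (0.443). Profiles that share the step between control and treated arrays resemble each other by that step alone.

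The partners of the 5 genes were read from 6 lists of related genes, which hold 156 measured genes in all. Across all genes, 3.17% were called higher and 2.36% lower in castrated animals, 2.51% and 5.48% in estradiol-treated animals, and 2.12% and 2.21% in combined animals. Of the list genes 9, 19 and 7 were called in castrated, estradiol and combined animals (5.77%, 12.2% and 4.49% of the 156, against 5.54%, 7.99% and 4.32% of all genes). Without estradiol arrays 1 and 2 they were 32, 10 and 25 (20.5%, 6.41% and 16%), and that fit called 16.6%, 5.05% and 14.5% of all genes. In castrated and combined animals the main share of the lists is near that of all genes. Each list is given with its own count. Every fit without estradiol arrays 1 and 2 keeps only array 3 in the estradiol group. A call with estradiol can be lost there for want of arrays, with no smaller difference.

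The V-ATPase list holds the pump that Atp6v1c2 belongs to. Of 23 measured genes, 1 rose and 1 fell in castrated, 0 rose and 4 fell in estradiol-treated, and 0 rose and 1 fell in combined animals, with medians of -0.13, -0.30 and -0.17. The counts without estradiol arrays 1 and 2 were 1 rose and 5 fell, 1 and 2, and 1 and 5. Atp6v1h, a regulatory subunit, fell in all 3, with differences of -0.69, -0.63 and -0.88 (adjusted p = 0.0238, 0.0352 and 0.0065). Its levels were 8.52, 8.97 and 8.48 in castrated, 8.64, 8.84 and 8.69 in estradiol and 8.50, 8.54 and 8.35 in combined animals, against 9.51, 9.20 and 9.34 in controls. Atp6ap2, an accessory subunit, rose by 0.89 in castrated animals (adjusted p = 0.0326). Atp6v1a, the catalytic subunit, fell by 1.48 with estradiol (adjusted p = 0.0104), and Atp6v0b and Atp6v0c of the membrane sector fell by 0.77 and 0.64 (adjusted p = 0.0108 and 0.0304). The Atp6v0b, Atp6v0c and Atp6v1h calls with estradiol were lost without estradiol arrays 1 and 2, which leaves 1 estradiol array. Their differences were then -0.47, -0.47 and -0.66. Single arrays also ended calls: any control or combined array for Atp6v1h with estradiol, any control or castrated 1 or 3 for Atp6v1h in castrated animals, control 1 or 2 for Atp6v0b, any control, estradiol 2 or combined 1 for Atp6v0c, and control 2 for Atp6v1a (adjusted p = 0.0531). The Atp6ap2 call was lost without any 1 of the control, castrated or combined arrays. The Atp6v1h call in combined animals held in all 15 alternative fits, which leave out each array in turn or estradiol arrays 1 and 2 together, or change the scaling. Atp6v1c1, the other C subunit gene, named after its values were seen, had differences of 0.35, -0.35 and -0.03 (adjusted p = 0.448, 0.238 and 0.995).

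Of 33 measured conjugation and export genes, 1 rose and 2 fell in castrated, 0 and 2 in estradiol-treated, and 1 and 2 in combined animals, with medians of -0.04, 0.19 and 0.09. Leaving out estradiol arrays 1 and 2 made them 1 and 4, 0 and 2, and 2 and 3. Ugt8, a galactosyltransferase of myelin lipids, fell, with differences of -1.30, -1.87 and -1.57 (adjusted p = 0.0382, 0.00505 and 0.0167). Gclc, which makes the first step of glutathione synthesis, fell, with differences of -0.85, -1.25 and -1.0 (adjusted p = 0.0274, 0.00309 and 0.0126). Ahr, the aryl hydrocarbon receptor, rose by 1.04 in castrated and 1.17 in combined animals (adjusted p = 0.0165 and 0.00929), with 0.34 in estradiol-treated ones (adjusted p = 0.317). The estradiol calls of Ugt8 and Gclc held in all 15 alternative fits. Their castrated calls were lost without any 1 of the control or castrated arrays, and that of Ugt8 also without any combined array. Their combined calls were lost without control 2 or 3 or combined 1 or 3, that of Ugt8 also without control 1 and that of Gclc without combined 2. The Ahr calls were lost without control 2 or 3 or castrated 1 or 3 in castrated animals, and without control 3 or combined 1 or 3 in combined animals. Abcc1, Abcc2 and Abcc4, relatives of Abcc3 chosen after their values were seen, lay between -0.15 and 0.55, and none passed.

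In the phototransduction list, the cascade in which Gnat2 works, 0 of 27 measured genes passed in any comparison with control, with medians of 0, 0.26 and 0.03, and the count was also 0 without estradiol arrays 1 and 2. The smallest p was that of Guca1a, a guanylate cyclase activator, at 0.65 with estradiol (adjusted p = 0.0592). In the list of G protein subunits, 0 of 28 rose, and 1, 3 and 0 fell, with medians of 0.05, -0.23 and -0.02. Without those arrays 3, 0 and 2 rose and 3, 1 and 2 fell. Gna14, an α subunit of the Gq family, fell in castrated and in estradiol-treated animals, with differences of -1.27 and -1.97 (adjusted p = 0.0202 and 0.00148), and was -1.05 in combined ones (adjusted p = 0.0596). Its levels were 6.05, 6.08 and 6.53 in castrated, 4.82, 5.47 and 6.26 in estradiol and 6.60, 6.24 and 6.47 in combined animals, against 7.23, 7.55 and 7.69 in controls. The interaction of castration and estradiol was called in 1.1% of all genes and in 2 of the 156 list genes (1.28%), Gna14 and Ncl, a share near that of all genes. Gnao1 and Gng5 fell by 0.86 and 0.73 with estradiol (adjusted p = 0.0158 and 0.0437), and both calls were lost without estradiol arrays 1 and 2. The Gnao1 call was also lost without control 2 or 3, the Gng5 call without any 1 array other than estradiol 3, and the Gna14 call in castrated animals without control 2 or 3 or castrated 1 or 2. Gnat1 and Gnat3, the rod and taste relatives of Gnat2, named after their values were seen, lay between -0.03 and 0.39, and neither passed.

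Of 26 measured heparan sulphate genes, 1 rose in castrated animals, 1 rose and 2 fell in estradiol-treated ones and 1 rose in combined ones, with medians of 0.07, 0 and 0.13. Without estradiol arrays 1 and 2, 5 rose and 2 fell in castrated, 0 rose and 1 fell in estradiol-treated, and 4 rose and 1 fell in combined animals. Sdc1, a cell-surface proteoglycan that carries heparan sulphate, rose in all 3, by 1.52, 1.10 and 1.43 (adjusted p = 0.00734, 0.0364 and 0.0119). It was 9.90, 8.74 and 9.54 in castrated, 9.37, 8.68 and 8.86 in estradiol and 9.48, 8.79 and 9.64 in combined animals, against 7.86, 7.85 and 7.92 in controls, with no overlap. Its estradiol call was lost without arrays 1 and 2 of that group, and also without estradiol 1, castrated 3, combined 1 or any control array. Its combined call was lost without control 2 or combined 1 or 3. Ext1, which builds the heparan sulphate chain, and Sdc2 fell with estradiol by 0.69 and 0.71 (adjusted p = 0.0102 and 0.00883). The Ext1 call was lost without estradiol arrays 1 and 2 or without control 3, and that of Sdc2 under quantile normalization. Sulf2, the paralogue of Sulf1, named after its values were seen, had 0.67, -0.21 and 0.42 (adjusted p = 0.139, 0.55 and 0.484).

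Of 22 measured genes in the list of leucine-rich repeat and nucleolar genes, 2, 5 and 2 rose and 0, 2 and 0 fell, with medians of 0.15, 0.13 and 0.16. Without estradiol arrays 1 and 2, 6, 3 and 4 rose and 2, 0 and 1 fell. Npm1, a histone chaperone of the nucleolus, rose by 0.81, 1.07 and 1.02 (adjusted p = 0.0104, 0.00191 and 0.00271), and Ncl, nucleolin, by 1.01, 1.16 and 0.93 (adjusted p = 0.00489, 0.00218 and 0.00969). The Npm1 call in castrated animals was lost without control 2 or 3, and the Ncl call in combined animals without control 2 or combined 3. With estradiol, Lrriq4 rose by 1.23, Fbl by 0.68 and Wdr12 by 0.74, and Lrrc59 fell by 0.78 (adjusted p = 0.0432, 0.0215, 0.0381 and 0.0429). Of these 4, only the Fbl call held without estradiol arrays 1 and 2, and it was lost without any 1 control array. Any 1 control array also ended the other 3 calls.

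**Figure D4:**
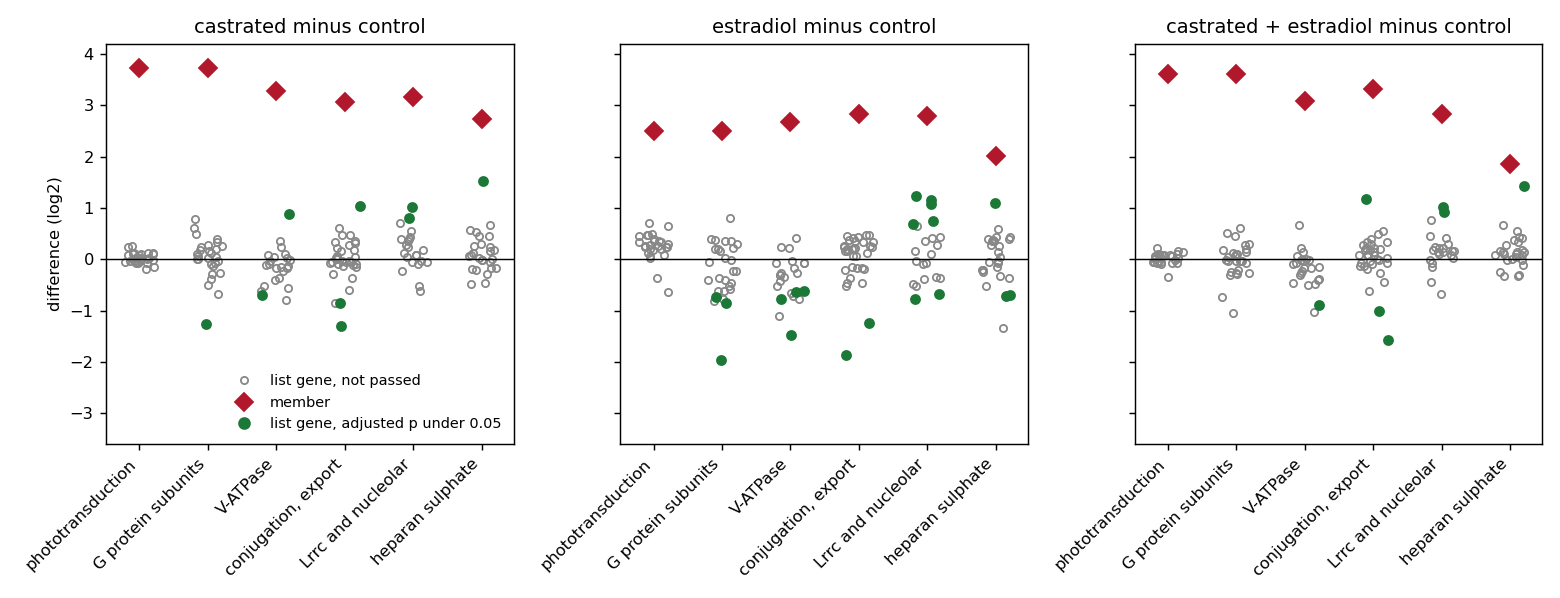
Differences from control (log2, vertical axis) in 3 panels for the genes of the 6 lists, with the related member as a diamond. Open points did not pass and filled points passed. The members lie at 1.85 to 3.72, while the list genes that passed lie between -1.97 and 1.52.

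The 5 genes do not sit in one place: Gnat2 and Lrrc34 are on chromosome 2, Sulf1 on 5, Atp6v1c2 on 6 and Abcc3 on 10. Of the 20 tested genes nearest to them, 0 rose and 3 fell in castrated and 1 rose and 2 fell in estradiol-treated animals. In combined animals 0 rose and 2 fell. The medians were 0.13, 0.10 and 0.16 in castrated, estradiol-treated and combined animals. Over all genes 3.17%, 2.51% and 2.12% were called higher and 2.36%, 5.48% and 2.21% lower, in the same order. Cpa6, a carboxypeptidase of the extracellular matrix and the second neighbour of Sulf1, fell, with differences of -3.82, -3.78 and -3.97 (± 0.27, SE; adjusted p = 5.02e-06, 6.78e-06 and 3.76e-06), the third largest fall of all genes by the least of its 3 differences. Its levels were 5.83, 5.53 and 5.64 in castrated, 5.73, 5.42 and 5.96 in estradiol and 5.26, 5.53 and 5.77 in combined animals, against 8.76, 9.98 and 9.72 in controls, with no overlap, in the opposite direction to Sulf1. Pdia6, a protein disulphide isomerase next to Atp6v1c2, fell, with differences of -0.97, -0.86 and -1.06 (adjusted p = 0.00513, 0.0106 and 0.00316), and its estradiol call was lost without control 1 or without estradiol arrays 1 and 2. Nol10, on the other side, had 1.29, 0.79 and 0.78 (adjusted p = 0.0721, 0.18 and 0.381). Odc1, the polyamine enzyme, fell by 0.81 in castrated animals (adjusted p = 0.0217), a call lost without any control array or castrated 1 or 3. Lrriq4, beside Lrrc34, is the neighbour called higher with estradiol, a call that held in 1 of 15 alternative fits. Its levels were 4.59, 4.47 and 3.20 in estradiol-treated animals, against 2.36, 3.13 and 3.08 in controls. None of the neighbours of Gnat2 (Gstm4, Ampd2, Gnai3 and Gpr61) or of Abcc3 (Luc7l3, Ankrd40, Cacna1g and Spata20) passed.

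Markers of 9 cell types were read from lists. Of 18 macrophage markers, 12, 4 and 8 rose and 0 fell in castrated, estradiol and combined animals, with medians of 1.49, 0.58 and 1.22, and Gpnmb, a lysosomal glycoprotein of macrophages, is both on that list and among the top-ranked genes above. Their summed linear level was 6770 to 10100 in castrated, 3240 to 7470 in estradiol and 6060 to 7720 in combined animals, against 2980 to 3730 in controls, so the estradiol range overlapped that of controls. Without estradiol arrays 1 and 2, which leaves estradiol array 3 alone, the macrophage medians were 1.49, 1.29 and 1.22. Of 11 luminal markers, 6, 4 and 7 rose and 0, 1 and 0 fell, and their sum was 19500 to 24300, 15600 to 18200 and 19600 to 23600, against 12200 to 13300. Of 11 fibroblast markers, 2, 0 and 1 rose, with sums of 6760 to 9240, 3750 to 5540 and 5720 to 7740, against 5870 to 7160. The least expressed of the macrophage, luminal and fibroblast markers averaged 4.55 (Itgam), 6.68 (Elf3) and 6.17 (Postn). Itgam lay below the array medians, which ran from 5.53 to 5.76. The least expressed lymphocyte and nerve markers, Ms4a1 (3.56) and Nefm, were dimmer than Itgam. Signal over background is unknown for these values, so such dim markers are less certain. Of the 4 measured secretory markers of the lobe, 1, 0 and 1 rose and 2, 2 and 1 fell, and their sum was 6980 to 9930, 6620 to 10800 and 9100 to 10700, against 16200 to 17300. They moved in both directions. Pbsn, probasin, had differences of -6.57, -4.26 and -5.32 and fell in all 3. Azgp1, a secreted zinc-binding glycoprotein, rose by 2.43 in castrated and 1.99 in combined animals. The Pbsn call with estradiol was lost without estradiol arrays 1 and 2, which leaves 1 estradiol array. The median of the 4 markers with estradiol was -1.05 in the main fit and -0.64 in that one. Of 11 lymphocyte markers, 1, 3 and 1 rose and 0 fell, with sums of 597 to 1080, 577 to 720 and 650 to 895, against 489 to 589. Of 7 basal markers 0 passed, with sums of 1490 to 2530, 1600 to 2530 and 2090 to 2640, against 1200 to 1580. Of 9 endothelial and 9 smooth muscle markers, 2 and 1 fell with estradiol and the others did not pass. These falls were not called without estradiol arrays 1 and 2. The endothelial and smooth muscle medians with estradiol were then -0.42 and -0.40, against -0.37 and -0.46 in the main fit. For luminal, lymphocyte and nerve markers they were 0.57, 0.19 and -0.14, against 0.50, 0.30 and -0.03. The endothelial sums were 783 to 882, 581 to 627 and 746 to 881, against 736 to 891. The smooth muscle sums were 4600 to 7620, 4200 to 5950 and 6370 to 9350, against 7040 to 8260. Both estradiol ranges lay below those of controls. Of 8 nerve markers 0, 1 and 0 rose and 1 fell in each comparison. The part of these cell types in the levels of the 5 genes was not tested.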

How the data were processed

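RNA from the ventral prostate was hybridised to Affymetrix arrays, 3 per group, and processed with Affymetrix Expression Console, per the submitters' processing notes. The deposited values, 1 per probe set and array, were taken as log2 levels because their range, 0.8 to 13.39, fits that scale. Log base, background correction and normalization are not stated in the labels. Of 29214 probe sets, 15310 had 1 symbol, 323 several and 13581 none; 15279 matched RefSeq by gene identifier. The probe set with the highest mean stood for a gene, which left 14506 genes. Tests used limma 3.58.1 under R 4.3.3 (2-sided, all 12 arrays, 1 mean per group, Benjamini-Hochberg adjustment over 14506 genes, threshold 0.05). The procedure was tested on simulated data.

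The members and lists were chosen with earlier results of these data known. Named genes were the members, the 3 closest profiles to each (placeholder symbols and olfactory receptors left out), up to 6 genes per list that passed (or the 1 with the smallest p), and the 2 nearest tested genes on each side of a member. Alternatives covered scaling, weights, the variance model, filters, probe set choice, a replicate block and the arrays used.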

Additional observations from a re-analysis of the deposited data

Results flagged for a closer look

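Among the 156 genes of the 6 lists, the effect of estradiol differed between castrated and intact animals for Gna14 and Ncl, by the interaction term of the limma fit. These 2 are 1.28% of the list genes, against 1.1% of all genes (159 of 14506), so the lists do not stand out by this count. For Gna14 the estradiol effect under castration less the one in intact animals was 2.19 ± 0.41 (SE, adjusted p = 0.0199), and it held in 8 of 15 alternative fits (adjusted p from 0.00212 to 0.0727). It was lost without any 1 of control 2 or 3, castrated 1 or 2, or the combined arrays. Without estradiol arrays 1 and 2 it was 1.44. For Ncl it was -1.25 ± 0.26 (SE, adjusted p = 0.0354), with adjusted p from 0.0179 to 0.122 over 15 alternatives, of which 6 kept the call. It was lost without any control array, castrated 3, estradiol 2 or any combined array, and with array medians centred. The cause was not tested.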

How the results depend on the processing

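The median difference of the 5 genes from control stayed between 3.07 and 3.29 for castrated, 2.35 and 3.04 for estradiol and 2.96 and 3.22 for combined animals over 22 alternatives. Over the same alternatives estradiol minus castrated ran from -1.63 to -0.28 for Gnat2 and from -0.74 to -0.32 for Atp6v1c2, given as a description. The list genes called, 9, 19 and 7, were 27, 3 and 31 with only the 2 groups compared (17.3%, 1.92% and 19.9% of the list genes, against 12.9%, 1.36% and 19.8% of all genes) and 32, 10 and 25 without estradiol arrays 1 and 2. Array quality weights gave 41 for castrated and 53 for combined animals (26.3% and 34%, against 26.1% and 28.5% of all genes), and testing all probe sets gave 12 for estradiol (7.69%, against 5.06%). Leaving out single arrays gave 2 to 21, 7 to 60 and 2 to 18 (the 60 is 38.5% of the list genes, in a fit without estradiol replicate 3 that called 36.7% of all genes). Signs turned for differences near 0. Lrrc34 combined minus estradiol was -0.27 without estradiol arrays 1 and 2, -0.66 with weights and -0.57 to 0.50 with single arrays left out, and Lrrc34 estradiol minus castrated was 0.34 with weights and -0.82 to 0.24. Gnat2 combined minus castrated was 0.38 with weights and -0.48 to 0.17, and Sulf1 combined minus estradiol -0.81 to 0.28. The causes were not tested. Centring array medians ended the calls of Atp6ap2, Ugt8 and Gclc in castrated and of Lrriq4 and Wdr12 in estradiol-treated animals. Quantile normalization ended those of Ugt8 in castrated and of Atp6v0c, Atp6v1h, Sdc2, Lrriq4, Lrrc20, Lrrc59 and Pdia6 in estradiol-treated animals. For estradiol minus control, 364 genes were higher and 795 lower, against 202 and 1107 with array medians centred, 383 and 598 with quantile normalization and 403 and 330 without estradiol arrays 1 and 2. Combined minus control had 307 and 320, against 209 and 339 centred. A fit with the replicate block called 9, 19 and 8 list genes. Same-numbered arrays had correlations of -0.156 to 0.284, and 8 of the 12 arrays correlated most with an array of their own number. The main fit used no pairing, and whether a shared number marks a pairing was not tested. Signal over background is unknown for these values, so dim levels such as those of Lrrc34 in controls are less certain.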
